A study of Mus musculus with 9 samples.

Results

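The Hippo pathway and the genes under its coactivator YAP were followed as 10 named genes through RNA-seq of mouse esophageal epithelial organoids, which are self-organising cultures of esophageal epithelial cells. The genes were taken by name, with earlier results of these data known. They are the coactivators Yap1 and Wwtr1, the kinases Lats1 and Lats2, and the angiomotin-like adaptors Amotl1 and Amotl2. The others are the target genes Ctgf, Cyr61 and Ankrd1, and Dlc1, which encodes a GTPase-activating protein. Of these 10 genes, 8 had values, out of 8742 genes in the deposited tables, and all 8 had a count value, which can be 0, for each of the 9 libraries. Cyr61 and Ankrd1 are in none of the tables, so their levels were not analysed here.

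The 9 libraries came from 3 groups of 3, none of them treated and all harvested 7 days after seeding. WT organoids were wild type. PN organoids were labelled Trp53;Notch1 KO, and PCN organoids Trp53;Cdkn2a;Notch1 KO, so loss of Trp53 and Notch1 is labelled for both edited groups and loss of Cdkn2a for PCN alone. The labels do not say how the edits were made, whether an edited group is 1 clone or which mouse strain was used. They call the organoids triplicated and name no separate animals or cultures, so the p-values measure the spread between these libraries, which may be technical.

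In mammals the kinases MST1 and MST2 activate LATS1 and LATS2, which phosphorylate YAP and its relative TAZ (the product of Wwtr1) and so keep them out of the nucleus. Unphosphorylated YAP and TAZ bind TEAD transcription factors and switch on genes such as Ctgf, Cyr61, Ankrd1, Amotl2 and Lats2, and the last of these feed back as inhibitors. In stratified epithelia this pathway is known for linking cell density and tension to the growth of basal cells.

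The WT libraries held between 14695420 and 15093994 counts each, the PN libraries between 16857744 and 18912526, and the PCN libraries between 17422590 and 20198041. Trp53 lay between 118 and 121 CPM (counts scaled to a library total of 1000000) in WT and between 2.27 and 3.96 in the edited libraries. Notch1 lay between 213 and 277 CPM in WT, 140.5 and 154 in PN, and 66.5 and 76.9 in PCN. Cdkn2a was higher in the group labelled as its knockout, at 62.4 to 70.2 CPM against 6.49 to 10.3 in WT and 21.5 to 22.7 in PN, so its count does not check the edit and the libraries are named by their labels throughout. The epithelial keratins Krt5 and Krt14 were abundant (6629 ± 229 CPM for Krt5 in PN, 1959 ± 278 for Krt14 in WT), while 0 of 8 fibroblast, 0 of 6 leukocyte, 0 of 5 muscle and glia and 1 of 5 endothelial markers (Esam) were in the tables, which says nothing of the level of the markers outside them.

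TEAD factors bind DNA through a short motif, and 5 promoter windows of the measured genes follow to show where its letters stand. They are taken from RefSeq on GRCm38.p6, each from 250 bases before the annotated start to 30 bases after it, on the strand of the gene. Capitals mark GGAATG or its reverse complement CATTCC, the core letters of the TEAD motif, which overlap no other motif searched. Amotl2 and Lats2 are shown because their RNA was lower in both edited groups, Yap1 and Wwtr1 because these paralogs moved apart, and Amotl1 as a window without the letters.
Amotl2, chr9:102717554-102717833, plus strand: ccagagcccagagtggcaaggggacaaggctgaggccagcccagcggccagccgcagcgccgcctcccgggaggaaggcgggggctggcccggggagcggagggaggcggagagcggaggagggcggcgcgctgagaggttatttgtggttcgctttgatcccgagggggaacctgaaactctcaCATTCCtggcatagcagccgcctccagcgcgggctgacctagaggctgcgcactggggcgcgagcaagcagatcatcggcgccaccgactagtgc
Lats2, chr14:57746094-57746373, minus strand: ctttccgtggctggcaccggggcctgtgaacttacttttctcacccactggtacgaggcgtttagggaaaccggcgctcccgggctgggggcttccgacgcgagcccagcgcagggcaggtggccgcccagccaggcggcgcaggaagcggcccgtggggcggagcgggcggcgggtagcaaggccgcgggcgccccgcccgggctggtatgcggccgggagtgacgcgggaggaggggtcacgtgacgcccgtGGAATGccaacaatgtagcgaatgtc
Yap1, chr9:8004567-8004846, minus strand: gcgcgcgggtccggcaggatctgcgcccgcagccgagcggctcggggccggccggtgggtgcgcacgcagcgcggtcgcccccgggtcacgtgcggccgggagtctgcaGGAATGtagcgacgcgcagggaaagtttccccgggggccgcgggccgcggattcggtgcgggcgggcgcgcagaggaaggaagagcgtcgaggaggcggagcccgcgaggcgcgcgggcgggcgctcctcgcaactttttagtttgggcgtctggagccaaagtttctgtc
Wwtr1, chr3:57575881-57576160, minus strand: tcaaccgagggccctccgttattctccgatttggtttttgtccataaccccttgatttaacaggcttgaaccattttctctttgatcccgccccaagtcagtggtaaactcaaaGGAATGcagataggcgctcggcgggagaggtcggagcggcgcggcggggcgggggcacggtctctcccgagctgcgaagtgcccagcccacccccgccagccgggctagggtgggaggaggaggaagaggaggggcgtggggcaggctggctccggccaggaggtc
Amotl1, chr9:14614971-14615250, minus strand: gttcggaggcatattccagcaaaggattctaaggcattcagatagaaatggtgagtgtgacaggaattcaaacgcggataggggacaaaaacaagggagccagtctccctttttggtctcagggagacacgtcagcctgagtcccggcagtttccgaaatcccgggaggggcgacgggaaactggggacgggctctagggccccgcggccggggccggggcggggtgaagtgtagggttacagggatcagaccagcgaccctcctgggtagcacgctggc
The letters begin 65 bases before the start in Amotl2, 141 bases before it in Yap1, 136 bases before it in Wwtr1 and at base 5 of the transcript in Lats2. Of the 10 named genes, 8 matched the promoter table, in 10 windows, and 6 genes held the letters in at least 1 window, Cyr61 and Ankrd1 among them. By window, 7 of the 10 held them, beside 13.9% of all 32851 mouse promoter windows of this length. The 2 windows of Wwtr1 overlap and hold the same site, which is thus counted in both. Several of the genes were named as YAP targets, so the 2 shares are not of like sets. The window at another annotated start of Lats2, not shown, did not hold them. A CArG box, the site of serum response factor, was in 0 of these 10 windows and in 1.56% of all windows. A match is a run of letters and no evidence of binding. Ctgf and Dlc1 were not in the promoter table.

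Lats2, Amotl1, Amotl2, Ctgf, Dlc1 and Wwtr1 were lower in both edited groups than in WT, while Yap1 was higher in both and Lats1 higher in PCN. Any 2 of the 3 comparisons share the libraries of a group, so they are not independent of each other. In PN against WT, 7 of the 10 genes were in the authors' table, beside 38.1% of the genes the authors tested. All 7 passed the refit used here, 1 higher and 6 lower, beside 36.4% of the same genes (17.6% higher and 18.8% lower). In PCN against WT, 8 of the 10 were in the table, beside 38.6% of the genes tested, and all 8 passed the refit, 2 higher and 6 lower, beside 36.5% (17.5% higher and 19% lower). In PCN against PN, 3 of the 10 were in the table and passed, all higher, beside 24.5% of the genes tested in the table and 23.8% passing (12.3% higher and 11.5% lower). The libraries of the 2 groups did not overlap for any of these 7, 8 and 3 genes, as was so for 98.6%, 98.2% and 97.9% of the fitted genes of the tables. Every gene in the tables had been called by the authors from the same libraries, so passing the refit is no independent evidence, and a gene such as Ctgf reached the tables through its WT libraries alone. Below, adjusted p-values come from the quasi-likelihood test of edgeR (Benjamini-Hochberg, called at 0.05), and log2 fold changes are given ± the standard error, while a CPM with ± is a mean and SD (n = 3).

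**Figure D1:**
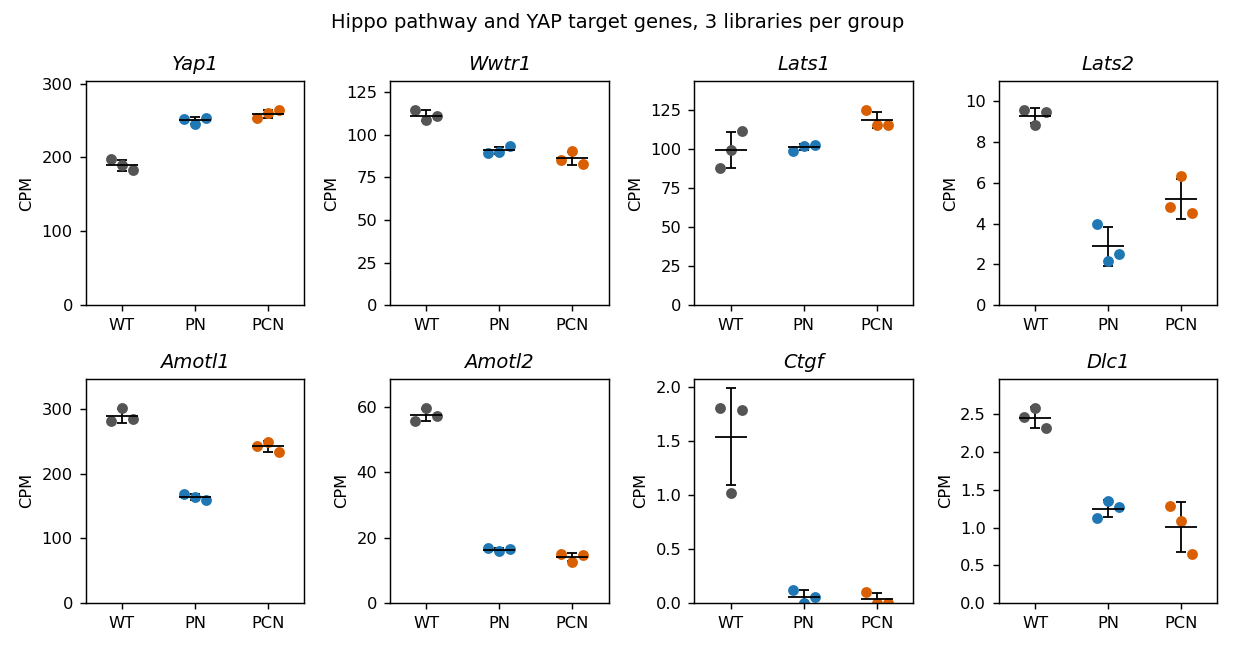
CPM of each measured gene in each of the 9 libraries (points), with the group mean and SD (black), on axes that start at 0. Amotl2, Ctgf, Lats2 and Dlc1 stand highest in the 3 WT libraries, Yap1 stands lowest there, and Amotl1 is lowest in PN.

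Yap1, the coactivator held back by LATS kinases (ENSMUSG00000053110, chromosome 9, 7931999 to 8004596, GRCm38), had levels of 197, 189 and 183 CPM in the WT libraries, 252, 245 and 254 in the PN libraries, and 253, 260.3 and 264 in the PCN libraries. Every edited library lay above every WT library, and the edited groups overlapped. Yap1 rose 1.33-fold in PN libraries (log2 fold change 0.41 ± 0.06, adjusted p = 0.00019) and 1.37-fold in PCN (0.45 ± 0.07, adjusted p = 0.00013). It was not in the authors' table for PCN against PN, where the log2 fold change was 0.05 with a 95% interval of -0.04 to 0.14.

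Wwtr1, which encodes TAZ (ENSMUSG00000027803, chromosome 3, 57455649 to 57575910), went the other way. Its levels were 114, 108 and 111 CPM in the WT libraries, 89.1, 90.0 and 93.2 in the PN libraries, and 85.1, 90.3 and 83.0 in the PCN libraries. The WT libraries lay above all edited libraries, and PN and PCN overlapped. Wwtr1 fell in PN libraries (log2 fold change -0.28 ± 0.07, adjusted p = 0.0043) and in PCN (-0.36 ± 0.07, adjusted p = 0.0012). Between PCN and PN the difference was -0.08, with an interval of -0.19 to 0.03.

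The levels of the coactivators relative to each other, which do not depend on library scaling, differed between the groups. FPKM here is the authors' count scaled by gene length and library total. Levels of different genes compared by it rest on the deposited gene length, and what that length covers is not stated. The ratio of Yap1 to Wwtr1 FPKM was 0.892, 0.903 and 0.850 in WT, 1.46, 1.40 and 1.41 in PN, and 1.54, 1.49 and 1.64 in PCN. No library of one group overlapped another group, and the exact two-sided permutation test gave p = 0.1 for each of the 3 pairs of groups, the smallest value that 3 against 3 libraries allow. Against WT this outcome was fixed by Yap1 lying higher and Wwtr1 lower in every edited library, so the test adds nothing there. Wwtr1 was the higher of the pair per length in WT, and Yap1 in both edited groups. This crossing rests on the deposited lengths, 9257 bases for Yap1 and 4779 for Wwtr1. In CPM Yap1 lay above Wwtr1 in every library.

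**Figure D2:**
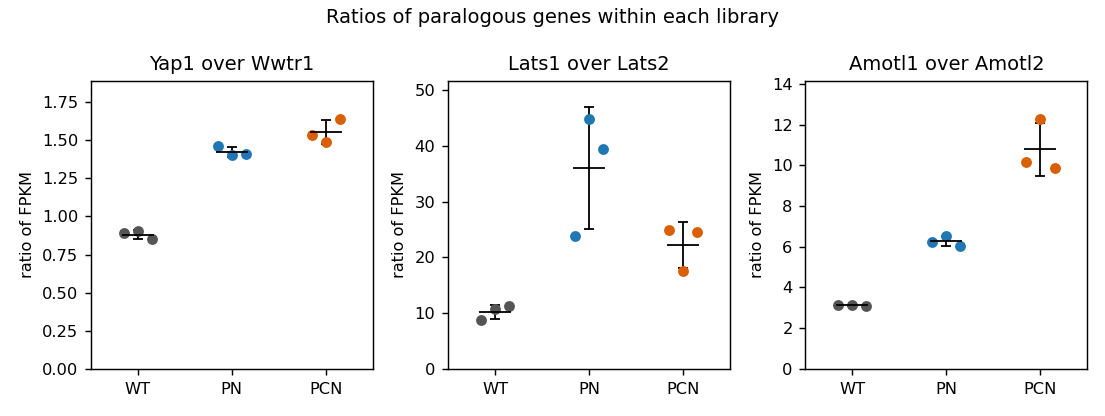
Ratio of the authors' FPKM of 2 related genes within each library (points), with group mean and SD (black), on axes that start at 0. Yap1 over Wwtr1 rises from at most 0.903 in WT to at least 1.40 in the edited libraries, Amotl1 over Amotl2 separates all 3 groups, and Lats1 over Lats2 overlaps between PN and PCN.

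The LATS kinases differed from each other. Lats1 (ENSMUSG00000040021, chromosome 10, 7681214 to 7716460) had levels of 87.9, 99.3 and 111.5 CPM in the WT libraries, 99.1, 102 and 103 in the PN libraries, and 125, 116 and 116 in the PCN libraries. The PCN libraries lay above all others, and the PN libraries lay within the WT range. Lats1 was 1.20-fold higher in PCN than in WT (log2 fold change 0.26 ± 0.09, adjusted p = 0.034) and 1.17-fold higher than in PN (0.23 ± 0.05, adjusted p = 0.0011). In PN against WT, where the authors did not list it, the log2 fold change was 0.04 with an interval of -0.15 to 0.22. Leaving out 1 library ended the call in PCN against WT for WT replicate 1 (adjusted p = 0.14), WT replicate 2 (0.097), PCN replicate 1 (0.16), PCN replicate 2 (0.078) or PCN replicate 3 (0.066); its adjusted p lay between 8.2e-05 and 0.16 across all alternatives. The call in PCN against PN ended in 1 fit over all 9 libraries (adjusted p = 0.055, range 0.00069 to 0.055).

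Lats2 (ENSMUSG00000021959, chromosome 14, 57689662 to 57758388), both a kinase of the pathway and a target of YAP, had levels of 9.55, 8.85 and 9.47 CPM in the WT libraries, 3.97, 2.18 and 2.49 in the PN libraries, and 4.802, 6.31 and 4.51 in the PCN libraries. The groups did not overlap, with WT highest and PN lowest. Lats2 was 3.21-fold lower in PN libraries (log2 fold change -1.68 ± 0.22, adjusted p = 4.5e-05) and 1.78-fold lower in PCN (-0.83 ± 0.18, adjusted p = 0.0017) than in WT. PCN exceeded PN 1.81-fold (0.85 ± 0.22, adjusted p = 0.0033). Per length, Lats1 exceeded Lats2 in every library. The ratio of their FPKM lay between 8.79 and 11.2 in WT, between 23.8 and 44.9 in PN, and between 17.5 and 24.9 in PCN. For this ratio the exact two-sided permutation test gave p = 0.1 for each edited group against WT and p = 0.3 for PCN against PN. In PCN against WT that outcome was fixed by Lats1 lying higher and Lats2 lower in every PCN library.

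Other genes of chromosome 14 moved with Lats2 in PN against WT and in PCN against PN. In PN against WT, 259 of the 276 other fitted genes of that chromosome were lower in PN, with a median log2 fold change of -0.68, against 49.6% lower and a median of 0.22 on the other chromosomes. In PCN against WT 51.2% of 209 were lower, with a median of -0.23, close to the 51.9% and -0.28 of the other chromosomes. The interval of Lats2 there (-1.22 to -0.45) lay below the median of -0.23. In PCN against PN, 6 of 328 were lower and the median was 0.61, inside the 95% interval of Lats2 (0.41 to 1.30). In PN against WT the interval of Lats2 (-2.16 to -1.20) lay below the median of -0.68. Its log2 fold change of -1.68 lay above the 10th percentile of the chromosome's fitted genes (-1.84), within their spread. The part of the chromosome-wide difference in the Lats2 result was not tested. The other 7 measured genes lie on chromosomes 3, 8, 9 and 10, where between 45.6% and 63.0% of the fitted genes were lower in either edited group than in WT.

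**Figure D3:**
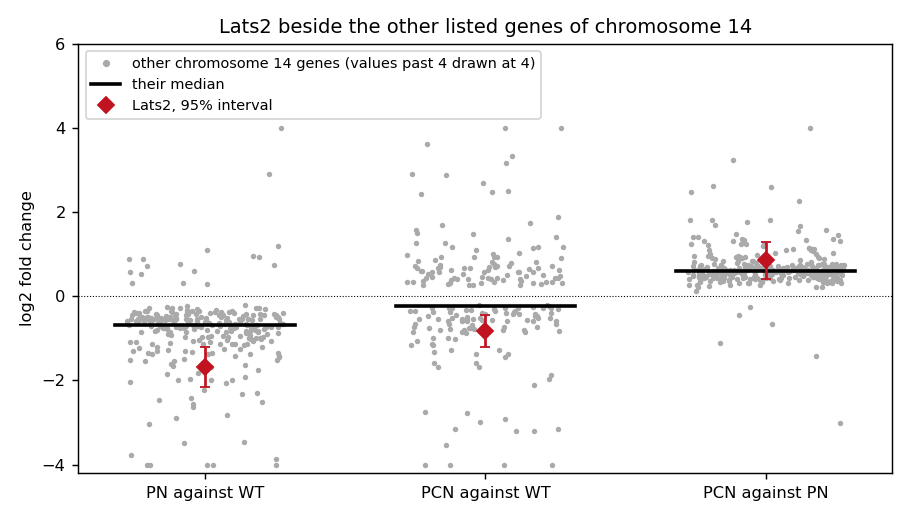
Log2 fold change of Lats2 (red, 95% interval) beside the other fitted genes of chromosome 14 in each authors' table (grey, values past 4 drawn at 4) and their median (black bar). Their median is -0.68 in PN against WT, -0.23 in PCN against WT and 0.61 in PCN against PN. The tables list called genes only, which leaves a gap around 0.

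The angiomotin-like adaptors bind YAP and TAZ and hold them at junctions or in the cytoplasm. Amotl2 (ENSMUSG00000032531, chromosome 9, 102716672 to 102733418), also a YAP target, had levels of 55.9, 59.7 and 57.2 CPM in the WT libraries, 16.8, 15.8 and 16.4 in the PN libraries, and 14.95, 12.7 and 14.8 in the PCN libraries. WT lay far above both edited groups, and the highest PCN library lay just below the lowest PN library. Amotl2 was 3.49-fold lower in PN libraries (log2 fold change -1.80 ± 0.09, adjusted p = 4.3e-09) and 4.06-fold lower in PCN (-2.02 ± 0.10, adjusted p = 1.9e-09). It was not in the authors' table for PCN against PN, where the log2 fold change was -0.21 with an interval of -0.42 to 0.01.

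Amotl1 (ENSMUSG00000013076, chromosome 9, 14541966 to 14645056) had levels of 281, 302 and 285 CPM in the WT libraries, 168, 165 and 159 in the PN libraries, and 244, 249.6 and 233 in the PCN libraries. The groups did not overlap, with PCN between WT and PN. Amotl1 was 1.75-fold lower in PN than in WT (log2 fold change -0.81 ± 0.07, adjusted p = 5.4e-07) and 1.48-fold higher in PCN than in PN (0.56 ± 0.05, adjusted p = 7.2e-11). Its fall in PCN against WT was small (-0.25 ± 0.07, adjusted p = 0.011), and that call ended with TMM scaling (adjusted p = 0.061) and without WT replicate 2 (0.055), PCN replicate 1 (0.052) or PCN replicate 3 (0.070), and the adjusted p lay between 0.00099 and 0.070 across the alternatives. The ratio of Amotl1 to Amotl2 FPKM lay between 3.11 and 3.16 in WT, between 6.03 and 6.52 in PN, and between 9.87 and 12.3 in PCN, with no overlap and an exact two-sided permutation p = 0.1 for each pair. In PCN against PN that outcome was fixed by Amotl1 lying higher and Amotl2 lower in every PCN library.

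Ctgf (ENSMUSG00000019997, chromosome 10, 24595442 to 24598683), a secreted matricellular protein and the classical YAP target, was scarce. It had 27, 15 and 27 counts in the WT libraries, 2, 0 and 1 in PN, and 2, 0 and 0 in PCN. The WT libraries lay between 1.02 and 1.80 CPM and the highest edited library at 0.119, so the WT group stood apart from both others. A library with 0 counts allows up to 0.177 CPM in PN replicate 2, 0.172 in PCN replicate 2 and 0.161 in PCN replicate 3. The ratio of WT to PN counts, scaled by the authors' size factors, was 26.9 with an exact 95% interval of 8.83 to 134, and that of WT to PCN counts was 43.2 (11.5 to 364), both covering counting error only. Without PN replicate 1 the first ratio was 55.0 (9.54 to 2202), and without PCN replicate 1, which held both PCN counts, the level in WT was at least 18.5-fold higher, taking 3 counts over the PCN group as the floor. Ctgf fell in both groups (adjusted p = 0.00011 in PN and 6.2e-05 in PCN). It reached the tables through its WT libraries alone, so these p-values add no independent support. PCN and PN, with 2 and 3 counts, are both at or under that floor and were not compared.

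Dlc1, the gene of a GTPase-activating protein (ENSMUSG00000031523, chromosome 8, 36567751 to 36953143), was also scarce, at 37, 38 and 35 counts in WT, 19, 23 and 24 in PN, and 26, 19 and 12 in PCN. In CPM the WT libraries (2.32 to 2.59) lay above PN (1.13 to 1.35) and PCN (0.644 to 1.29), which overlapped. Relative to WT, Dlc1 was 1.95-fold lower in PN libraries (log2 fold change -0.96 ± 0.28, adjusted p = 0.015) and 2.41-fold lower in PCN (-1.27 ± 0.32, adjusted p = 0.0061). The call in PN ended without PN replicate 1 (adjusted p = 0.066, range 0.014 to 0.066 over the alternatives). Between PCN and PN the log2 fold change was -0.30, with an interval of -1.02 to 0.41 that includes a more than 2-fold fall.

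**Figure D4:**
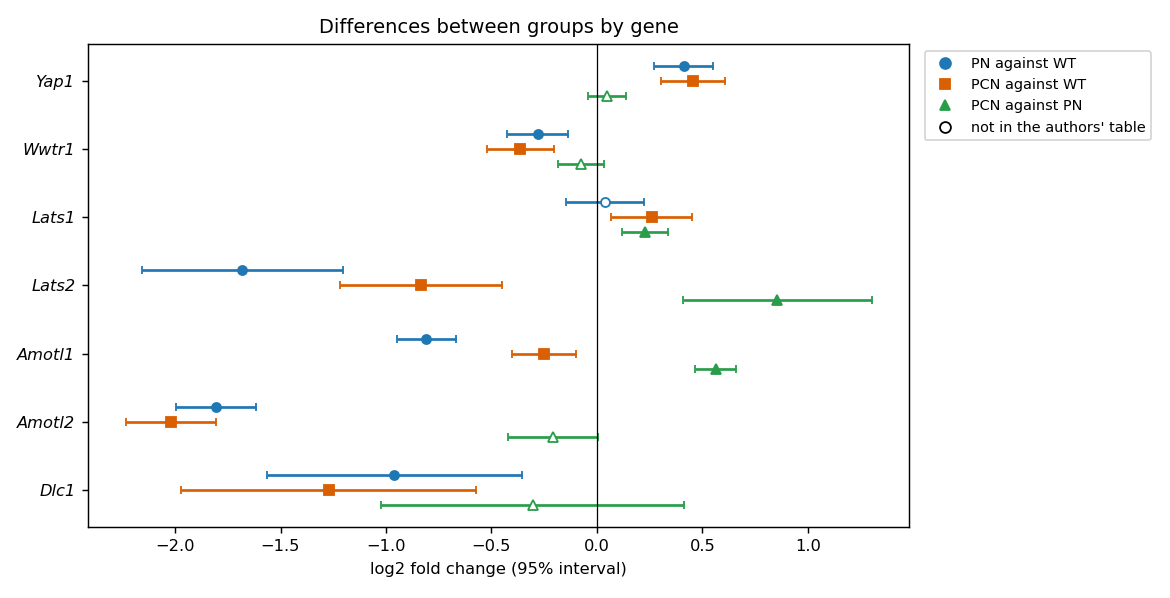
Log2 fold change with 95% interval of each measured gene except Ctgf, whose edited libraries hold too few counts, in the 3 comparisons. Open symbols mark genes outside the authors' table for that pair. Yap1 is the 1 gene to the right of 0 in PN against WT whose interval excludes 0, and Amotl1, Lats1 and Lats2 lie to the right of 0 in PCN against PN.

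Set side by side per length, the genes changed order between the groups, where each order rests on the deposited gene lengths. In WT the mean FPKM ran from Amotl1 (28.7) through Wwtr1 (23.3), Yap1 (20.5), Lats1 (13.6), Amotl2 (9.16), Lats2 (1.33) and Ctgf (0.537) to Dlc1 (0.167), and no neighbours overlapped in their libraries. In PN Yap1 led (27.0), followed by Wwtr1 (19.0), Amotl1 (16.3), Lats1 (13.9), Amotl2 (2.60), Lats2 (0.413) and Dlc1 (0.0851), with no overlap between neighbours. In PCN the order was Yap1 (27.99), Amotl1 (24.1), Wwtr1 (18.02), Lats1 (16.3), Amotl2 (2.25), Lats2 (0.747) and Dlc1 (0.0686), again without overlap between neighbours. Ctgf, with 3 counts in PN and 2 in PCN over all libraries, was not placed in the order of the edited groups.

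Markers of the squamous epithelium moved with these results. Krt13, a keratin of differentiated esophageal layers, went from 15876 ± 645 CPM in the WT libraries to 2099 ± 79.6 in the PN and 2791 ± 77.2 in the PCN libraries (adjusted p = 3.1e-12 and 3.4e-12). Its partner Krt4 went from 11382 ± 410 to 2501 ± 74.9 and 2206 ± 46.8 CPM (adjusted p = 3.4e-11 and 5.9e-12). Trp63 and Krt15, genes of basal cells, rose, Trp63 from 486 ± 22.8 to 698 ± 36.2 and 649 ± 39.7 CPM, and Krt15 from 300.4 ± 32.4 to 731 ± 15.9 and 1644 ± 37.7. The basal keratin Krt14 stood at 1959 ± 278, 1965 ± 81.3 and 2433 ± 83.5 CPM, was not listed in PN against WT, and rose in PCN against WT (adjusted p = 0.017). Krt5 was not listed in either comparison with WT and was lower in PCN than in PN (log2 fold change -0.14 ± 0.04, adjusted p = 0.016). Sox2, at 246 ± 64.5 CPM in WT and 183 ± 10.3 in PCN, was not called (adjusted p = 0.12). Cdh1, from the same marker list, fell in both (log2 fold change -0.77 in PN and -0.91 in PCN). Epcam fell in PCN against WT (-0.34) and was not listed in PN against WT. Of the 9 epithelial markers listed, 5 were fitted in PN against WT, 2 higher and 3 lower, and 8 in PCN against WT, 3 higher and 4 lower. Over all fitted genes, 3022 were higher and 3226 lower of 6295 in PN, and 3028 and 3288 of 6404 in PCN. Of the genes tested, 17.6% were higher and 18.8% lower in PN, and 17.5% and 19% in PCN. In bulk RNA, fewer cells of a type and less RNA per cell cannot be told apart, and the part of cell composition in the results above was not tested.

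Most other fitted targets of YAP and TAZ fell alongside Amotl2, Lats2 and Ctgf. Of the 22 genes of a published YAP/TAZ target signature from human tumours, those 3 included, 16 were in the tables, Cyr61 and Ankrd1 not among them. In PN against WT 12 were fitted, where 11 were lower and 1, the forkhead factor Foxf2, was higher. In PCN against WT 13 were fitted, with 11 lower and 2 higher (Foxf2 and the phosphatase Ptpn14). Without those 3 genes, 8 were lower and 1 higher of 9 in PN, and 8 lower and 2 higher of 10 in PCN. Of the genes tested, 18.8% were lower and 17.6% higher in PN, and 19% were lower and 17.5% higher in PCN. Of all fitted genes, the like base for these counts, 3226 were lower and 3022 higher of 6295 in PN. In PCN 3288 were lower and 3028 higher of 6404. The median log2 fold change of the fitted signature genes was -1.47 in PN and -0.99 in PCN, against -0.26 and -0.28 over all fitted genes. The fitted genes had all been listed by the authors as changed, so the medians describe listed genes.

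Among them Nt5e, the ectonucleotidase CD73, fell from 43.1 ± 3.4 CPM (WT) to 0.792 ± 0.17 (PN) and 1.11 ± 0.19 (PCN) (log2 fold change -5.73 ± 0.17 and -5.27 ± 0.16, adjusted p = 4.3e-11 and 1.4e-11). F3, the tissue factor that starts coagulation, fell from 118 ± 7.7 to 25.1 ± 2.0 and 10.9 ± 1.1 CPM, and was lower in PCN than in PN (log2 fold change -1.20 ± 0.10, adjusted p = 1.6e-10). Foxf2 rose from 1.20 ± 0.52 CPM to 16.0 ± 3.1 and 21.8 ± 3.0 (adjusted p = 1.6e-07 in PN and 1.0e-08 in PCN).

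In PCN against PN, 10 signature genes were fitted, 7 higher and 3 lower (F3, Crim1 and Fjx1). All 3546 fitted genes of that comparison gave 1809 higher and 1698 lower, which are 12.3% and 11.5% of the genes tested. The receptor tyrosine kinase Axl averaged 34.6 ± 2.9 CPM among WT libraries, 11.2 ± 0.29 among PN and 30.8 ± 2.2 among PCN libraries, so that it was lower in PN than in WT (log2 fold change -1.62 ± 0.11, adjusted p = 1.0e-07) and was higher in PCN than in PN (1.46 ± 0.10, adjusted p = 3.65e-13). Fjx1, a relative of the fly kinase four-jointed, was not listed in PN against WT. It stood at 49.6 ± 9.4, 52.1 ± 0.87 and 20.8 ± 3.2 CPM in the same order, and fell in PCN against PN (-1.33 ± 0.09, adjusted p = 1.5e-12). Of the 7 higher genes, 2 (Lats2 and Dock5) lie on chromosome 14.

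**Figure D5:**
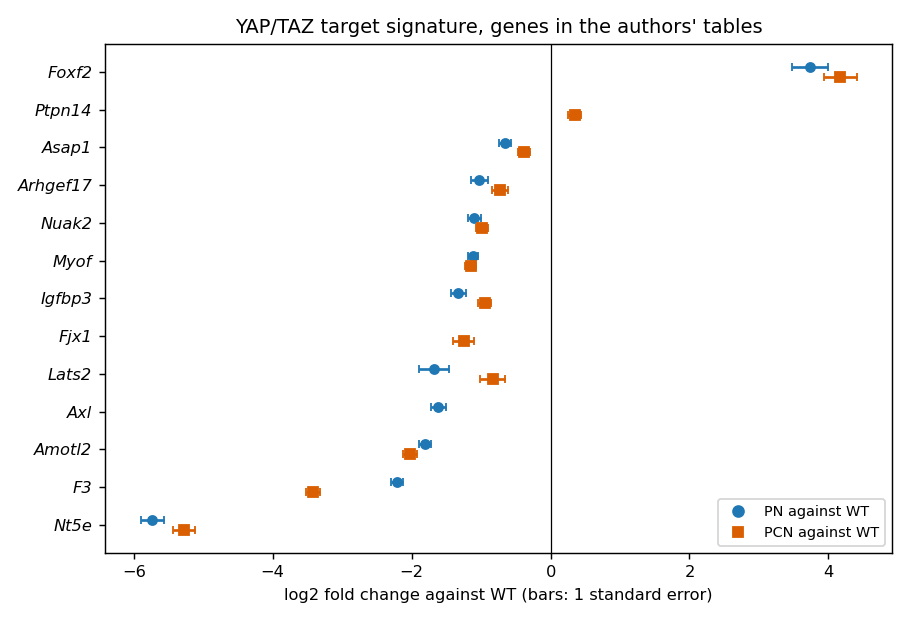
Log2 fold change against WT (bars, 1 standard error) of the YAP/TAZ target signature genes other than Ctgf that were fitted in PN against WT (blue) or PCN against WT (orange). Foxf2 lies far to the right of 0, Ptpn14 slightly to the right, and all others to the left, down to -5.73 for Nt5e.

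The pathway kinases, adaptors and coactivators moved in both directions. Of 31 genes, named ones included, 18 were fitted in PN against WT, 6 higher and 12 lower. In PCN against WT 24 were fitted, 10 higher and 14 lower. Over all fitted genes, 3022 were higher and 3226 lower of 6295 in PN, and 3028 and 3288 of 6404 in PCN. Of the genes tested, 17.6% were higher and 18.8% lower in PN, and 17.5% and 19% in PCN. Without the named genes, 5 were higher and 8 lower of 13 in PN, and 8 higher and 10 lower of 18 in PCN. The medians of all fitted list genes, -0.27 and -0.32, were close to those over all fitted genes. Outside the named genes, the third angiomotin, Amot, rose from 1.83 ± 0.29 CPM (WT) to 6.82 ± 0.26 (PN) and 7.11 ± 1.7 (PCN) (log2 fold change 1.90 ± 0.21 and 1.95 ± 0.25, adjusted p = 1.1e-05 and 2.6e-05), opposite to Amotl1 and Amotl2. Sfn, which encodes the epithelial 14-3-3 protein and is also a known p53 target, fell from 1496 ± 207 to 679 ± 16 and 680 ± 39 CPM.

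In PCN against PN 13 of these genes were fitted, 6 higher and 7 lower. All 3546 fitted genes gave 1809 higher and 1698 lower, which are 12.3% and 11.5% of the genes tested. Without the named genes, 3 were higher and 7 lower of 10. Sav1, the scaffold of the MST kinases, stood at 78.5 ± 3.4, 66.6 ± 5.2 and 35.6 ± 3.3 CPM in WT, PN and PCN, and fell in PCN against PN (log2 fold change -0.91 ± 0.07, adjusted p = 5.5e-11). Another 14-3-3 gene, Ywhaq, fell from 286 ± 13 to 163 ± 7.0 CPM (-0.81 ± 0.05, adjusted p = 5.5e-14). Both lie on chromosome 12, where 276 of 300 fitted genes were lower in PCN than in PN, with a median of -0.89. In PCN against WT, 294 of 341 were lower there, with a median of -0.96, and both genes were among the lower list genes. Outside chromosomes 12 and 14, list genes in PCN against WT were 10 higher and 11 lower. The part of these chromosome-wide differences in the results was not tested.

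The TEAD and VGLL genes, which encode the DNA-binding partners of YAP and their competitors, had 4 of 8 members in the tables. Of the 8, 1 was called in PN against WT, 4 in PCN against WT and 3 in PCN against PN. The shares of the genes tested were 36.4%, 36.5% and 23.8%. Tead4 fell from 30.01 ± 6.2 CPM in WT to 13.6 ± 1.2 in PN libraries (log2 fold change -1.13 ± 0.15, adjusted p = 5.1e-05) and 15.3 ± 1.9 in PCN (-0.97 ± 0.16, adjusted p = 0.00024). Vgll3 stood at 9.54 ± 0.93, 7.70 ± 0.84 and 3.41 ± 0.52 CPM and fell in PCN against PN (-1.17 ± 0.18, adjusted p = 3.7e-06). Vgll4, at 137 ± 14, 133 ± 3.5 and 113 ± 1.5 CPM, fell slightly in PCN against PN (-0.24 ± 0.05, adjusted p = 0.00041). Tead2, named after its values were seen, rose in PCN from 1.52 ± 0.26 CPM in WT to 3.11 ± 0.69 (adjusted p = 0.012).

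Junction and polarity genes that feed into the pathway included several of its membrane-bound regulators. Of 34 genes, 20 were fitted in PN against WT, 2 higher (Rassf6 and Strip2) and 18 lower, with a median of -0.40, and 19 in PCN against WT, 3 higher (Fat2, Ptpn14 and Scrib) and 16 lower, with a median of -0.53. The medians over all fitted genes were -0.26 and -0.28. Of these fitted genes 3226 were lower and 3022 higher of 6295 in PN, and 3288 and 3028 of 6404 in PCN. Of the genes tested 18.8% were lower and 17.6% higher in PN, against 19% and 17.5% in PCN. Crb3, an apical polarity protein, fell from 27.6 ± 6.5 CPM to 12.4 ± 1.3 in PN and 11.0 ± 1.2 in PCN, and the polarity gene Pard6b from 39.2 ± 2.2 to 20.2 ± 0.99 and 18.6 ± 2.1. Ctnna1, which encodes alpha-catenin, went from 771 ± 47 down to 429 ± 20 and 435 ± 14 CPM, and Rassf5 likewise from 53.3 ± 3.5 to 30.6 ± 2.5 and 32.3 ± 0.67. In PCN against PN 11 were fitted, 5 higher and 6 lower. All 3546 fitted genes gave 1809 higher and 1698 lower, which are 12.3% and 11.5% of the genes tested. Of the 6 lower genes, 3 (Frmd6, Mpp5 and the striatin Strn3) lie on chromosome 12. The same 3 are among the 16 lower in PCN against WT. Frmd6 stood at 221 ± 2.6 CPM in PN and 111 ± 4.9 in PCN, Mpp5 at 41.2 ± 2.3 and 23.4 ± 1.9, and Strn3 at 142 ± 11 and 56.1 ± 2.5. The atypical cadherin Fat2 was higher in PCN, at 475 ± 49 CPM against 294 ± 19 in PN (log2 fold change 0.69 ± 0.07, adjusted p = 4.0e-06).

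A list of serum response factor, its coactivators and genes of the actin skeleton was also mixed. This factor shares targets such as Ctgf with YAP. Of 21 genes 11 were fitted in PN against WT, 3 higher (the factor gene Srf, the coactivator gene Mkl2, and Zyx) and 8 lower. In PCN against WT 13 were fitted, the same 3 higher and 9 lower. The counts over all fitted genes and the shares of the genes tested are those given for the junction genes. The other coactivator gene, Mkl1, was lower in both (log2 fold change -0.36 and -0.31). Vinculin, Vcl, on chromosome 14 like Lats2, stood at 134 ± 13, 51.6 ± 2.7 and 80.0 ± 2.7 CPM, and the membrane-binding annexin Anxa1 at 2724 ± 199, 342 ± 18 and 453 ± 12, both lower in each edited group and higher in PCN than in PN. Tpm4 fell from 583 ± 27 to 345 ± 4.8 and 450.4 ± 16, and Fhl2 from 23.3 ± 1.2 to 13.9 ± 0.64 and 11.7 ± 1.3 CPM. In PCN against PN 7 of 9 fitted actin genes were higher and 1, the calponin Cnn2, was lower, at 47.9 ± 1.6 CPM in PCN against 100.1 ± 4.7 in PN. All 3546 fitted genes gave 1809 higher and 1698 lower, which are 12.3% and 11.5% of the genes tested.

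By pattern over the 9 libraries, the protein-coding genes nearest to Amotl2 were Duoxa1, the maturation factor of a peroxide-producing oxidase, with a root mean square difference of 0.103 in centred log2(CPM + 0.5), Mpzl3 (0.104), the transcription factor Ikzf2 (0.115) and Crybg2 (0.122), out of 6192 compared. Duoxa1 stood at 40.6, 11.3 and 10.1 mean CPM in WT, PN and PCN, and Mpzl3 at 119.5, 34.8 and 33.3. With a pseudocount of 1, 3 of these 4 remained. For Ctgf the nearest were 1810037I17Rik (0.189), Sel1l3 (0.193), C130026I21Rik (0.200) and Lipm (0.202), and 0 of these 4 remained with a pseudocount of 1, so this likeness depends on the pseudocount.

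In the GENCODE M21 annotation of GRCm38 other genes overlap the spans of Yap1, Wwtr1, Lats2, Amotl1 and Ctgf, among them a protein-coding gene on the strand of Lats2 (Gm49361) and a transcript antisense to Ctgf (Gm15270). How the authors assigned such reads is not given in the sources used here, so the levels of these genes are uncertain by that share.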

How the data were processed

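Total RNA of 9 organoid libraries was sequenced, and 3 tables, 1 per pair of groups, were deposited. Per the submitters' processing notes CASAVA, DESeq and GRCm38 (mm10) were used. Which aligner and annotation were used, and how reads were counted, is not stated in the labels or headers. The raw counts are the authors', per the file headers. Dividing them by the deposited normalized values (signal) gives 1 size factor per library and pair. FPKM values are the authors', from count, gene length and library total, per the file headers. The log2 fold change, the p-value and its adjusted form are the authors' own comparison, per the file headers, and each table lists genes with an adjusted p under 0.05.

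Library totals were recovered from counts and FPKM, and the number of genes adjusted over (17165 for PN and 17300 for PCN, each against WT, and 14758 between the edited groups) from the adjusted p-values. Each table was fitted on its own with edgeR 4.0.16 in R 4.3.3 (robust quasi-likelihood F test, filterByExpr, the authors' size factors as offsets, Benjamini-Hochberg over the recovered number, threshold 0.05), which kept 6295, 6404 and 3546 genes and all listed members. Standard errors were worked back from the F statistic. Members outside a table were fitted with all genes having counts in both groups, and never counted as called. Alternatives were other scalings, no filter, DESeq2 1.42.0, 1 fit over all 9 libraries on library totals, a replicate block and leaving out each library. The steps were tested on simulated data.

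The members and gene lists were chosen with earlier results of these data known, and 1 of the lists is not reported here. List genes named were the called ones of at least 5 CPM in the higher group with the 4 largest changes per list and comparison. Others named beside small counts (Tead2, Ptpn14, Rassf6, Strip2, Scrib, Srf, Mkl1, Mkl2, Zyx, Crim1 and Dock5) were picked after their values were seen. In PN and WT, libraries with the same number deviated together (correlations of 0.12 to 0.21 over 5877 genes of a mean count of at least 50). PCN replicate 3 and WT replicate 1, with different numbers, correlated at 0.28, so these values do not settle whether the numbers are pairs. The main fits held no replicate block. No column of other samples was found.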

Additional observations from a re-analysis of the deposited data

How the results depend on the processing

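Of 216 refits of a member's log2 fold change under the alternatives, 204 kept direction and call, 12 kept direction and lost the call, and 0 reversed. The losses concern Lats1 and Amotl1 in PCN against WT, Dlc1 in PN against WT and Lats1 in PCN against PN, with values given above and, for the replicate block, below. The number of members called ranged from 6 to 7 in PN against WT, 6 to 8 in PCN against WT and 2 to 3 in PCN against PN. TMM scaling over the listed genes moved the median gene by 0.07 in both comparisons with WT and by -0.03 in PCN against PN. TMM scaling, library totals alone or DESeq2 moved the number of calls in 1 direction by at most 3 in any of the pathway, junction, target and actin lists and reversed the excess of higher or lower genes in none of them. The epithelial marker list was not run under these settings.

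With the replicate block, 7 members were called in PN against WT, 7 in PCN against WT, where Lats1 had an adjusted p of 0.062, and 3 in PCN against PN, so it changed no call in PN against WT. For PCN the correlations did not show the numbers as pairs: same-numbered libraries correlated at -0.30 to -0.12 with WT and -0.15 to -0.10 with PN, and none correlated best with its own number. Each group was centred on the mean of its 3 libraries, which makes some correlations negative, so these values do not settle the pairing. For the 4 genes nearest to Ctgf, 0 were shared with a pseudocount of 1. Depth limits Ctgf and Dlc1, with at most 27 and 38 counts in a library. The Ctgf ratios without 1 library, the lists under other scalings and the lists split by chromosome were chosen after seeing the data.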
